A study of Mus musculus with 7 samples.

Results

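The genes described here were 8 transporters of the liver cell, 4 of the organic anion transporting polypeptide family (Slco1a4, Slco1b2, Slco2a1 and Slco2b1) and 4 of the organic anion and cation transporter family (Slc22a7, Slc22a18, Slc22a23 and Slc22a30). They were found by gene symbol among the 51426 genes of the liver RNA-seq tables, and the libraries were joined by Ensembl identifier. The livers came from male C57BL/6J mice on a high-fat diet (HFD) for 16 weeks, 3 WT and 4 TET1 KO, so both groups carried the diet and no chow-fed liver was compared. TET1 is a dioxygenase that oxidises 5-methylcytosine in DNA. The study's methods name the whole-body allele Tet1tm1.1Jae, bought on a mixed B6 and 129S4 background, while the labels give the strain as C57BL/6J. The deletion was present in every tissue, so effects in hepatocytes and effects that reached the liver from other tissues cannot be told apart.

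Organic anion transporting polypeptides (OATPs, Slco genes) sit in the sinusoidal membrane of hepatocytes and carry bile acids, bilirubin conjugates, steroid and thyroid hormone conjugates and many drugs from blood into the cell. The Slc22 family holds the organic anion transporters (OATs), the organic cation transporters (OCTs), the carnitine carriers and several orphans whose substrates are poorly known. In mice many of these genes lie in tandem clusters of close relatives, and several are expressed differently in male and female liver. The levels of these carriers limit how fast the liver clears endogenous anions and drugs.

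The libraries held between 15005277 and 22746138 counted reads, and 14754 genes passed the filter on low counts, all 8 members among them. The summed level of the 9 of 10 listed hepatocyte markers that were matched ranged from 70970 to 92830 CPM (reads counted for a gene, scaled to a fixed library total) in WT and from 78409 to 88956 CPM in TET1 KO. Alb made up most of that sum. Of the 9 markers 0 passed edgeR and 3 had an unadjusted p under 0.05 (26.3% of all tested genes), namely Apoa1, which lay above WT without overlap (log2 fold change 1.10, adjusted p = 0.0818 by edgeR), and Apob and Fga, at -0.56 and -0.77. DESeq2 called 1 of the 9 higher, against 4.16% of the genes it tested. Robust dispersions also called 1 of the 9 higher, where 156 of all 14754 tested genes were called higher. The Tet1 gene reached no more than 4 counts in a library, so its mRNA did not check the genotype labels. Each library was 1 mouse. On the first principal component, with 48.7% of the variance, WT livers lay between -56.9 and -19.4 and those of TET1 KO from 1.60 to 57.1, TET1 KO replicate 4 being the closest to the WT side. The summed markers of Kupffer cells (147 to 248 CPM in WT, 135 to 270 CPM in TET1 KO) and of stellate cells (233 to 334 CPM and 218 to 303 CPM) overlapped between the groups. Of the 7 stellate markers 1 was called, where 1.15% of all tested genes were called lower, and 0 with the replicate block. It was the pericyte-associated Rgs5, which fell by 0.67 on the log2 scale (adjusted p = 0.0460 by edgeR) without overlap. Levels below are CPM scaled by TMM, mean ± SD over livers, and differences are log2 fold changes of TET1 KO over WT with the standard error (SE), tested with edgeR's quasi-likelihood test and Benjamini-Hochberg adjustment over all tested genes. Intervals are 95% intervals of the same fit.

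Sequence upstream of 3 genes is shown. Slc22a30 and Slc22a28 were chosen because they are nearly identical there, and Slco2a1 because it was the member with the smallest p. Each run is the 250 bases before the annotated start, 5′ to 3′, from RefSeq on GRCm38.p6. The start is the one RefSeq's promoter windows use, and it differs from the outer end of the gene spans given further on for some genes, so the run of Slco2a1 lies within its gene span and that of Slc22a30 overlaps it by a few bases. For Slc22a30 (chr19:8405106-8405355, minus strand) and Slc22a28 (chr19:8131983-8132232, minus strand), capitals mark bases without an identical partner in the other sequence. For Slco2a1 (chr9:103008237-103008486, plus strand) capitals mark CpG dinucleotides.
Slc22a30: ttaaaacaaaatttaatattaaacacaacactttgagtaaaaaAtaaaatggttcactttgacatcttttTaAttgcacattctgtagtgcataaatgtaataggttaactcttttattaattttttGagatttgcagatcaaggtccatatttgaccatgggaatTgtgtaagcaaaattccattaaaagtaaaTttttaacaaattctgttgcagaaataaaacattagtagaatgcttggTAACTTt
Slc22a28: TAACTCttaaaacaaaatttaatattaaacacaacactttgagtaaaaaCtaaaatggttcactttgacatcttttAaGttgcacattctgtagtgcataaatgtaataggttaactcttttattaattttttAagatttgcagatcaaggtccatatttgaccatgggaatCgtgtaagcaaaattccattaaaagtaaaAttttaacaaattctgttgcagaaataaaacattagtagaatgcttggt
Slco2a1: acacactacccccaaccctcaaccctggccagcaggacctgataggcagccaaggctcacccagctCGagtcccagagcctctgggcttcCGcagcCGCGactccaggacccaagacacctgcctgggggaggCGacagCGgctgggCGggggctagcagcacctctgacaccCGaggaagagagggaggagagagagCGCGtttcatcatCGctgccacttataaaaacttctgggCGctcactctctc

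Across 256 alignment columns the upstream sequences of Slc22a30 and Slc22a28 were identical in 238, or 93.0%, with 6 substitutions and 6 unaligned bases in each. Over the longer window from 250 bases before to 50 after the start, Slc22a30 was 94.1% identical to Slc22a28, 68.1% to Slc22a29 and 49.6% to Slc22a27. The 2 polypeptide-family neighbours Slco1a4 and Slco1a1 were 50.3% identical in that window. The CpG content of this 300-base window differed widely among the 7 members that have one in the table, which are all but Slc22a7, and its relation to the levels was not tested. Slc22a23 held 38 CpG and Slco2a1 held 18, against a median of 7 over 32851 RefSeq windows, whereas Slc22a18 held 2, Slco1a4 held 1, and Slco1b2 and Slc22a30 held 0. Slco2b1 had 3 annotated starts with 5, 2 and 4 CpG. Searched on both strands, the HNF4 letters CAAAGTCCA, present in 0.475% of windows, were in none of the windows of these 7 members. The letters TATAAA, present in 13.6%, were found in the windows of Slco1b2 and Slco2a1. A match is a description of letters and says nothing about binding.

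Of the 8 transporters, 0 passed an adjusted p of 0.05 in edgeR, where 2.02% of all tested genes did, 0.874% as higher and 1.15% as lower in TET1 KO. At an unadjusted p under 0.05 there were 2 of 8, Slco2a1 and Slc22a30, against 26.3% of all tested genes. The groups did not overlap for 1 of 8, Slco2a1, against 22.5% of all tested genes. DESeq2 called 1 of 8, again Slco2a1, as higher, against 8.74% of the genes it tested (4.16% higher and 4.58% lower). The fitted log2 fold change was positive for 5 and negative for 3, with a median of 0.15 beside 0.01 over all tested genes. The members' counts at an unadjusted p and without overlap were thus near or below the share among all tested genes.

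**Figure D1:**
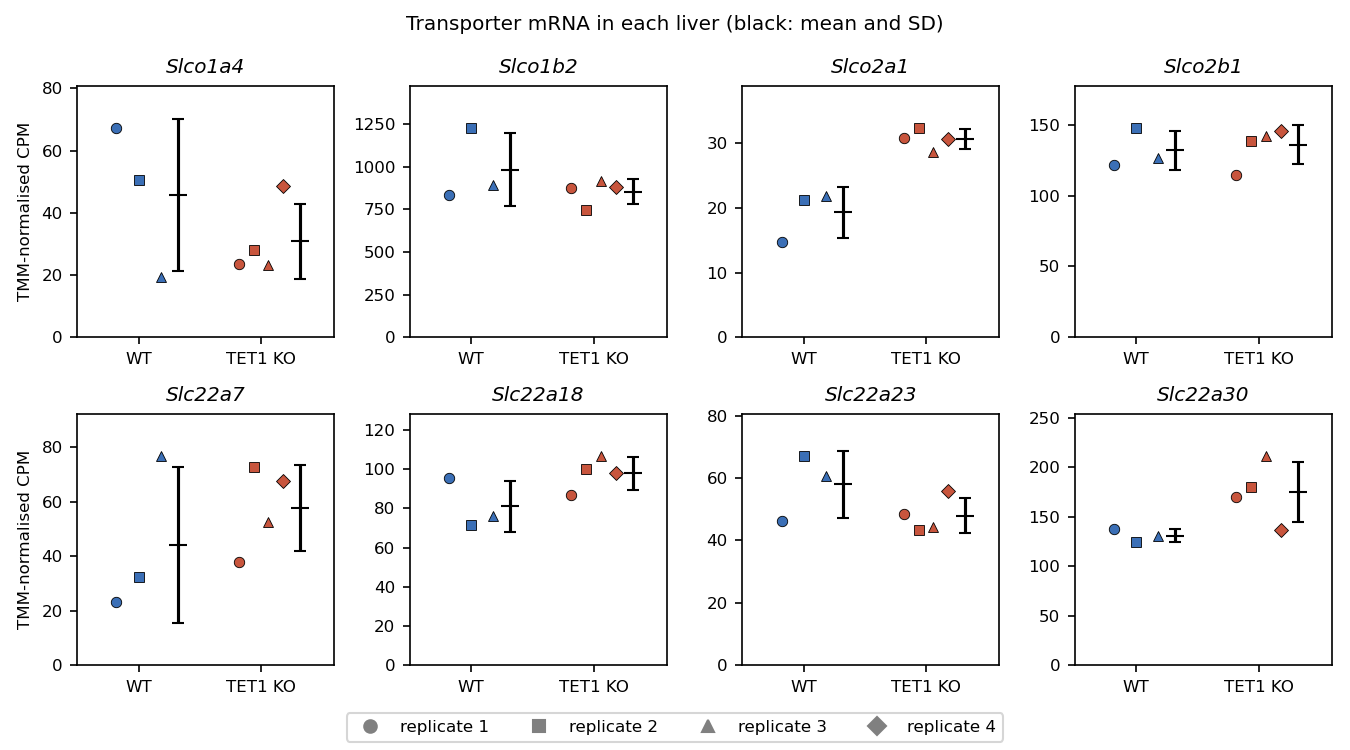
Level of each of the 8 transporters in every liver, in TMM-scaled CPM with each point 1 liver and black marks for the mean and SD of each group. The 4 TET1 KO livers lie above all 3 WT livers for Slco2a1, and the groups overlap for the other 7.

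Slco1b2 (ENSMUSG00000030236), a basolateral uptake carrier of conjugated bilirubin and bile acids in rodent hepatocytes (OATP1B2), was the most abundant member. Its level was 832, 1229 and 891 CPM in the WT livers and 876, 748, 915 and 880 CPM in the TET1 KO livers. WT replicate 2 stood above all others and the remaining 6 livers lay close together. The means were 984 ± 214 CPM in WT (n = 3) and 855 ± 73.4 CPM in TET1 KO (n = 4), a log2 fold change of -0.20 (SE 0.19, interval -0.61 to 0.21) with an adjusted p of 0.499 by edgeR. Without WT replicate 2 the log2 fold change was -0.02.

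Slco1a4 (ENSMUSG00000030237) encodes OATP1A4, a carrier of bile acids and cardiac glycosides that is female-predominant in mouse liver. It measured 67.3, 50.5 and 19.3 CPM in WT and 23.6, 28.0, 23.2 and 48.5 CPM in TET1 KO. The WT livers spanned the whole TET1 KO range and more, with WT replicate 3 the lowest of all 7, and TET1 KO replicate 4 lay near WT replicate 2. TET1 KO over WT gave a log2 fold change of -0.57 (SE 0.37, interval -1.38 to 0.25) with an adjusted p of 0.340 by edgeR. It was -0.95 without WT replicate 3 and -0.20 without WT replicate 1, and neither passed the test, at adjusted p values of 0.119 and 0.766.

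Slco2b1 (ENSMUSG00000030737, chromosome 7, 99657804 to 99711340, minus strand on GRCm38.p6) encodes OATP2B1, a broad-substrate uptake carrier, and had the smallest difference of the 8. It measured 122, 148 and 127 CPM in WT and 115, 139, 142 and 146 CPM in TET1 KO. The groups overlapped throughout, with means of 132 ± 13.5 CPM (n = 3) and 136 ± 13.8 CPM (n = 4). Its log2 fold change was 0.04 (SE 0.13) with an interval of -0.26 to 0.33, which is a fold of 0.834 to 1.26. The adjusted p was 0.884 by edgeR, and the sign turned in 5 of 14 alternatives.

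Slco2a1 (ENSMUSG00000032548, chromosome 9, 103007061 to 103096002, plus strand on GRCm38.p6) encodes the prostaglandin transporter, which takes up prostaglandins for their breakdown and is known from endothelium as well as epithelia. It measured 14.7, 21.3 and 21.8 CPM in WT and 30.9, 32.4, 28.6 and 30.7 CPM in TET1 KO. All TET1 KO livers lay above all WT livers, and the TET1 KO livers were tightly grouped, with a coefficient of variation of 5.05% against 20.5% in WT. The means were 19.3 ± 3.96 CPM (n = 3) and 30.7 ± 1.55 CPM (n = 4). This was a log2 fold change of 0.67 (SE 0.16, interval 0.32 to 1.02), a fold of 1.59, with an unadjusted p of 0.00141 and an adjusted p of 0.0550 by edgeR's quasi-likelihood test. It therefore missed the threshold, while DESeq2 gave 0.64 as the log2 fold change (adjusted p = 0.0114). Robust dispersions in edgeR gave an adjusted p of 0.0499.

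Leaving out 1 liver at a time kept the Slco2a1 log2 fold change between 0.50 and 0.74, with an adjusted p between 0.0512 and 0.149 by edgeR, so it was called in 0 of 7 such fits. Markers of bile duct cells moved with it. The summed level of the 6 listed cholangiocyte markers was 6.63 to 9.99 CPM in WT and 15.5 to 24.3 CPM in TET1 KO, without overlap. Sox9 made up most of that sum in all but TET1 KO replicate 4, at 4.15 to 8.06 CPM in WT and 9.46 to 20.9 CPM in TET1 KO, while Krt7 and Krt19 overlapped between the groups and Epcam did not, at 0.276 to 0.539 CPM in WT and 0.689 to 4.87 CPM in TET1 KO. Of the 4 that could be tested, all had positive log2 fold changes and 3 had an unadjusted p under 0.05 (26.3% of all tested genes). Of them 0 passed edgeR and 2 passed DESeq2 as higher (4.16% of the genes it tested), with Sox9 at a log2 fold change of 1.22 (adjusted p = 0.0569 by edgeR), while the defining marker Cftr had at most 5 counts in any liver. TET1 KO replicate 4 had the most Krt19 and Epcam. The summed endothelial markers overlapped, at 251 to 267 CPM in WT and 223 to 281 CPM in TET1 KO. Of these 10 markers, 8 had negative log2 fold changes, 3 an unadjusted p under 0.05 (26.3% of all tested genes) and 1, Tek, lay below WT without overlap (10.8% of all tested genes). By edgeR 0 were called, and DESeq2 called 1 lower (4.58% of the genes it tested). The part of these cells in the Slco2a1 difference was not tested, and in bulk liver a change in the number of cells of a type cannot be told apart from a change in RNA per cell.

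Measured over all 7 livers, the profiles nearest to that of Slco2a1 among 14665 genes outside the lists, by the root mean square difference of centred log2 CPM, were Pigr at 0.08, Qtrt1 at 0.11 and Gm36264 at 0.12. Pigr, the receptor that carries polymeric immunoglobulin across epithelia, went from a mean of 1000 to 1483 CPM, or 0.57 as a log2 fold change (adjusted p = 0.0977 by edgeR). Qtrt1 had a log2 fold change of 0.75 (adjusted p = 0.0814) and Gm36264 one of 0.65 (adjusted p = 0.136) in the same edgeR fit. None of the 3 passed the test.

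**Figure D2:**
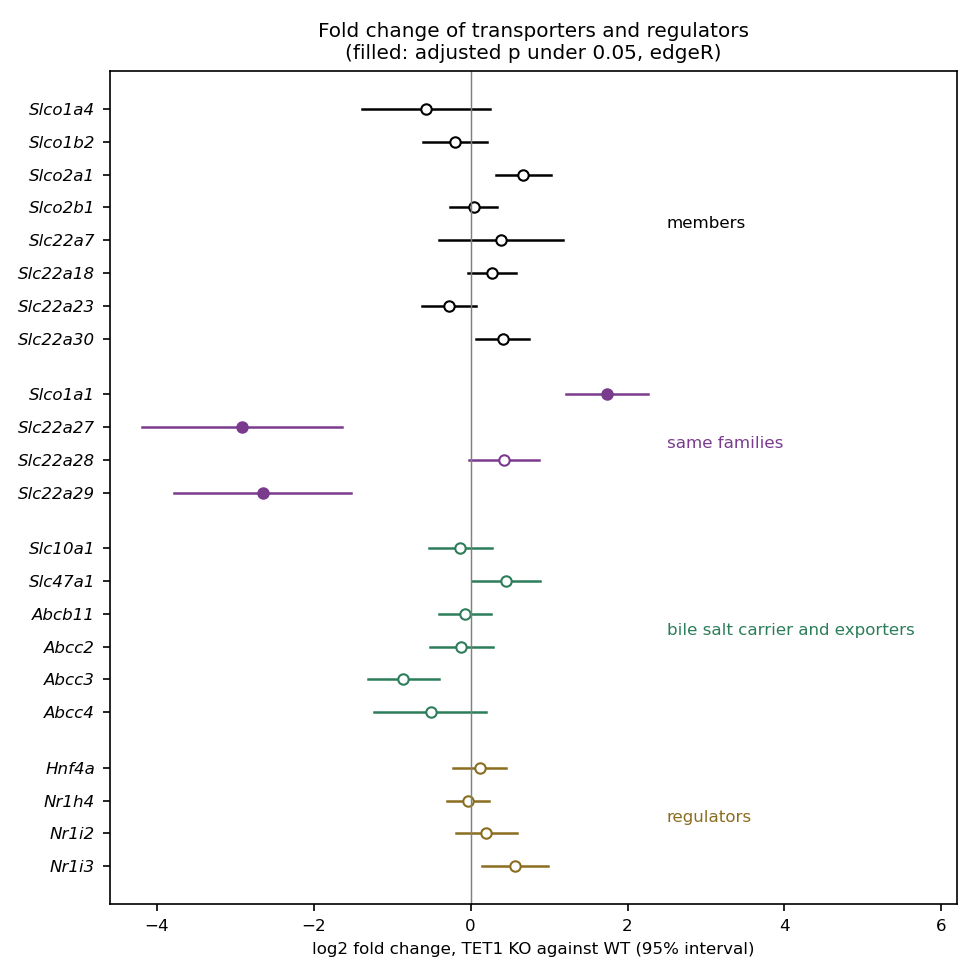
Log2 fold change of TET1 KO over WT for the 8 transporters and other listed transporters and regulators, with bars for the 95% interval of the edgeR fit and filled points for genes that passed an adjusted p of 0.05. Slco2a1 (0.67) and Slc22a30 (0.41) are the members whose interval excludes 0, and both points are open.

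Slc22a30 (ENSMUSG00000052562) is an orphan member of the organic anion transporter cluster on chromosome 19. It measured 138, 125 and 131 CPM in WT and 170, 180, 212 and 137 CPM in TET1 KO. The WT livers were tightly grouped, with a coefficient of variation of 4.94%, and 3 of 4 TET1 KO livers lay above them while TET1 KO replicate 4 lay within the WT range. The means were 131 ± 6.48 CPM (n = 3) and 175 ± 30.7 CPM (n = 4). The log2 fold change was 0.41 (SE 0.15, interval 0.07 to 0.75), with an unadjusted p of 0.0222 and an adjusted p of 0.131 by edgeR, and without TET1 KO replicate 4 it was 0.51 with an adjusted p of 0.0595. Without TET1 KO replicate 3 it was 0.29 (adjusted p = 0.307) and without WT replicate 2 it was 0.37 (adjusted p = 0.388), both by edgeR.

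Slc22a7 (ENSMUSG00000067144, chromosome 17, 46432185 to 46438477 on GRCm38.p6) encodes OAT2, a sinusoidal carrier of cyclic nucleotides and other organic anions. It measured 23.1, 32.2 and 77.0 CPM in WT and 37.8, 72.7, 52.7 and 67.5 CPM in TET1 KO. WT replicate 3 was the highest of all 7 livers and the other 2 WT livers were the lowest, a WT coefficient of variation of 65.4%. The log2 fold change was 0.39 (SE 0.36, interval -0.41 to 1.18) with an adjusted p of 0.507 by edgeR. It was 1.04 without WT replicate 3 (adjusted p = 0.0850) and 0.07 without WT replicate 1.

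Slc22a18 (ENSMUSG00000000154, chromosome 7, 143473726 to 143499334, plus strand on GRCm38.p6), an imprinted orphan carrier, measured 95.5, 71.3 and 76.1 CPM in WT and 86.7, 100, 107 and 98.0 CPM in TET1 KO. WT replicate 1 lay within the TET1 KO range and the other 2 WT livers lay below it. On the log2 scale the fold change was 0.27 (SE 0.14, interval -0.04 to 0.58) with an adjusted p of 0.237 by edgeR. It was 0.18 without WT replicate 2 (adjusted p = 0.590) and 0.40 without WT replicate 1 (adjusted p = 0.111), both by edgeR.

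Slc22a23 (ENSMUSG00000038267, chromosome 13, 34179158 to 34345275, minus strand on GRCm38.p6), an orphan with no agreed substrate, measured 46.2, 67.2 and 60.5 CPM in WT and 48.3, 43.3, 44.3 and 55.7 CPM in TET1 KO. WT replicate 1 and TET1 KO replicates 1 and 4 lay within the other group's range. The log2 fold change was -0.28 (SE 0.16, interval -0.62 to 0.07) with an adjusted p of 0.275 by edgeR. It was -0.16 without WT replicate 2 and -0.43 without WT replicate 1.

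Levels per length set the members in an order that raw CPM does not give. In CPM per kilobase of exon, Slco1b2 led in WT at 200 ± 43.5, followed by Slc22a18 at 47.1 ± 7.46, Slc22a30 at 39.0 ± 1.93 and Slco2b1 at 23.6 ± 2.46. Slc22a7 followed at 21.7 ± 14.2, then Slco1a4 at 11.9 ± 6.32, Slc22a23 at 9.08 ± 1.68 and Slco2a1 at 4.77 ± 0.982, each over 3 WT livers. The WT livers of Slco2b1 and Slc22a7, of Slc22a7 and Slco1a4, and of Slco1a4 and Slc22a23 overlapped, so those neighbours in the order did not differ beyond their spread. In TET1 KO the level of Slco2a1 was 7.60 ± 0.387 and that of Slc22a23 was 7.50 ± 0.882, and their livers overlapped. The place of Slc22a30 is uncertain, because 33.7% of its 50-base stretches also occurred in other genes and the counting options are not given.

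**Figure D3:**
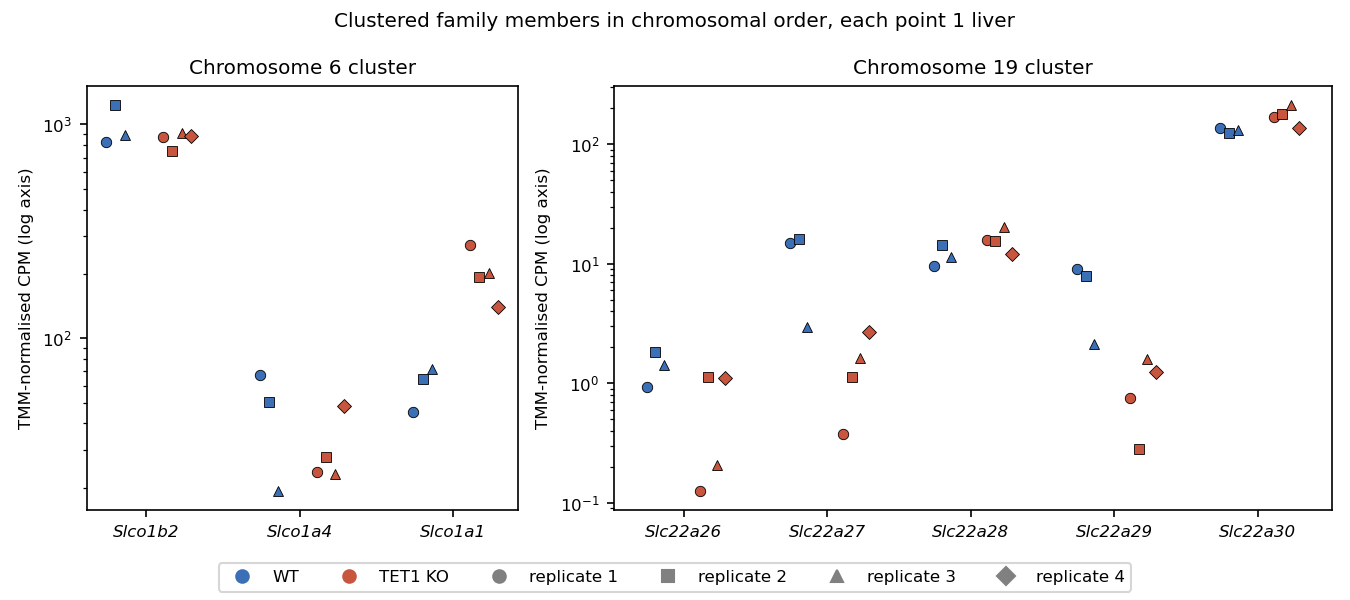
Level in every liver, in TMM-scaled CPM on a log axis, of the genes of the chromosome 6 Slco cluster and the chromosome 19 Slc22 cluster that hold members, with WT and TET1 KO livers as separate points. Slco1a1 lies above WT in all 4 TET1 KO livers, and Slc22a27 and Slc22a29 lie below WT in all 4.

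Slco1b2 (chromosome 6, 141629452 to 141686646, plus strand) and Slco1a4 (141805438 to 141856284, minus strand, both GRCm38.p6) are neighbours within the tandem Slco cluster, followed by Slco1a1. Slco1a1 encodes OATP1A1, a male-predominant sinusoidal carrier. It measured 45.1, 64.4 and 72.0 CPM in WT and 272, 194, 202 and 140 CPM in TET1 KO, so the lowest TET1 KO liver was above the highest WT liver. The log2 fold change was 1.74 (SE 0.23, interval 1.22 to 2.26) with an adjusted p of 0.00736 by edgeR, and Slco1a1 rose while neither member beside it passed the test. Its adjusted p was 0.0501 without WT replicate 2. The ratio of Slco1a1 to Slco1a4 was 0.670, 1.27 and 3.73 in WT and 11.5, 6.92, 8.74 and 2.89 in TET1 KO. The groups overlapped, with WT replicate 3 above TET1 KO replicate 4, and the mean log2 difference of 2.19 gave a 2-sided exact permutation p of 0.0857.

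Slc22a30 (chromosome 19, 8335371 to 8405111, minus strand) lies in a cluster that holds, among others, Slc22a26, Slc22a27, Slc22a28 and Slc22a29, orphan organic anion transporters. Slc22a27 measured 14.9, 16.2 and 2.98 CPM in WT and 0.376, 1.13, 1.64 and 2.69 CPM in TET1 KO. It fell by 2.91 on the log2 scale (SE 0.58, adjusted p = 0.0335 by edgeR). WT replicate 3 lay close to TET1 KO replicate 4 for this gene. Slc22a29 measured 8.96, 7.88 and 2.15 CPM in WT and 0.751, 0.282, 1.59 and 1.25 CPM in TET1 KO. It fell by 2.65 on the log2 scale (SE 0.51, adjusted p = 0.0292 by edgeR), again with WT replicate 3 lowest of the WT livers. Both calls were lost without WT replicate 1, WT replicate 2, or TET1 KO replicate 1, 2 or 3, at adjusted p values up to 0.178 for Slc22a27 and 0.149 for Slc22a29 (both without WT replicate 2). Over all 7 fits with 1 liver left out, Slc22a27 ranged from -3.41 to -2.58 and Slc22a29 from -3.07 to -2.34 in log2 fold change. The call was also lost for Slc22a27 under robust dispersions (adjusted p = 0.0739) and for Slc22a29 with the replicate block (adjusted p = 0.0529), both by edgeR, and Slc22a27 and Slc22a29 each had under 10 counts in 1 library and so were not tested where every library had to reach 10.

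Slc22a28, the gene most like Slc22a30, measured 9.55, 14.3 and 11.4 CPM in WT and 15.7, 15.4, 20.2 and 12.1 CPM in TET1 KO, with a log2 fold change of 0.43 (SE 0.20, adjusted p = 0.205 by edgeR). Its value was close to the 0.41 of Slc22a30, and the ratio of Slc22a30 to Slc22a28 lay between 8.71 and 14.4 in all 7 livers. The mean log2 difference in that ratio was -0.03, with a 2-sided exact permutation p of 0.800. Reads of these genes can be shared: 33.7% of the 50-base stretches of Slc22a30 transcripts and 53.9% of those of Slc22a28 also occurred in other protein-coding genes, so their counts are uncertain where the counting could split or drop such reads. For Slc22a27 and Slc22a29 the shares were 31.3% and 28.6%, and for Slco1a4 2.68%, while the other 6 members shared none. With 100-base stretches the shares were 20.5% for Slc22a30, 37.0% for Slc22a28, 8.01% for Slc22a27, 7.64% for Slc22a29 and 1.07% for Slco1a4.

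The ratio of Slc22a30 to Slc22a27 was 9.28, 7.73 and 44.0 in WT and 454, 160, 129 and 51.0 in TET1 KO. The ratio of Slc22a30 to Slc22a29 was 15.4, 15.9 and 60.9 in WT and 227, 638, 134 and 110 in TET1 KO. All TET1 KO livers lay above all WT livers for both ratios. The mean log2 differences were 3.33 and 3.12, with 2-sided exact permutation p values of 0.0571 and 0.0286, the second being the smallest that 3 against 4 livers allow. The 4 ratios were chosen after the values were seen, and adjusted over the 4 the 3 lower p values were each 0.114. Slc22a27 and Slc22a29 had already been called lower, so their ratios largely restate those calls and are not separate support. The highest values rest on few reads. Slc22a27 had 6 counts in TET1 KO replicate 1 and Slc22a29 had 4 in TET1 KO replicate 2.

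Of the other Slco genes, 2 of 11 were tested and 1 was called by edgeR, Slco1a1 as higher, against 0.874% of all tested genes. Slco3a1, a carrier of prostaglandins and thyroid hormone, had a log2 fold change of 0.66 (adjusted p = 0.123 by edgeR). Of the other Slc22 genes, 11 of 21 were tested, 0 were called higher and 2 lower by edgeR, against 0.874% and 1.15% of all tested genes, with 3 positive and 8 negative log2 fold changes and a median of -0.35. At an unadjusted p under 0.05 there were 5 of 11, against 26.3% of all tested genes, and DESeq2 called 1 higher and 3 lower, against 4.16% and 4.58% of the genes it tested. Slc22a3, an organic cation transporter, had a log2 fold change of -0.96 (adjusted p = 0.0616) and Slc22a4, a carnitine and ergothioneine carrier, one of 1.10 (adjusted p = 0.0664), both by edgeR. DESeq2 called both, at adjusted p values of 0.0107 for Slc22a3 and 0.0221 for Slc22a4.

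Among the bile salt carriers and exporters, 12 of 14 were tested and 0 passed edgeR. At an unadjusted p under 0.05 there were 5 of 12, against 26.3% of all tested genes, and DESeq2 called 3 lower (Abcc3, Abcb4 and Abcb1a), against 4.58% of the genes it tested. The median log2 fold change was -0.17, with 3 positive and 9 negative. Slc10a1, the sodium-dependent bile acid uptake carrier NTCP, averaged 323 ± 64.8 CPM in WT and 296 ± 49.0 CPM in TET1 KO, and Abcb11, the canalicular bile salt export pump, had a log2 fold change of -0.07 (interval -0.40 to 0.26). Abcc2, the canalicular exporter MRP2, had -0.12 (adjusted p = 0.713 by edgeR). Abcc3, the basolateral exporter MRP3, averaged 193 ± 65.5 CPM in WT (n = 3) and 107 ± 11.1 CPM in TET1 KO (n = 4), with no overlap and a log2 fold change of -0.86 (adjusted p = 0.0590 by edgeR). Its basolateral relative Abcc4 had -0.51 (adjusted p = 0.324) and Slc47a1, the canalicular cation exporter MATE1, 0.45 (adjusted p = 0.177), both log2 fold changes by edgeR. Slc51a, a subunit of the basolateral bile acid exporter, had 0 counts in all 7 livers, where a count of 0 allows up to 3.

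Of 13 transcription factors and nuclear receptors that govern hepatic carriers, 13 were tested and 0 passed edgeR. At an unadjusted p under 0.05 there were 3 of 13, against 26.3% of all tested genes, and DESeq2 called 1, Nr1i3, as higher, against 4.16% of the genes it tested. The median log2 fold change was 0.05. Nr1i3 encodes the xenobiotic receptor CAR and averaged 422 ± 97.9 CPM in WT (n = 3) and 622 ± 80.0 CPM in TET1 KO (n = 4), without overlap, at a log2 fold change of 0.56 (adjusted p = 0.105 by edgeR). Hnf4a, which helps to maintain the hepatocyte state, had 0.12 (adjusted p = 0.645), the bile acid receptor Nr1h4 (FXR) -0.04 (adjusted p = 0.861) and the xenobiotic receptor Nr1i2 (PXR) 0.20 (adjusted p = 0.492), all log2 fold changes by edgeR.

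**Figure D4:**
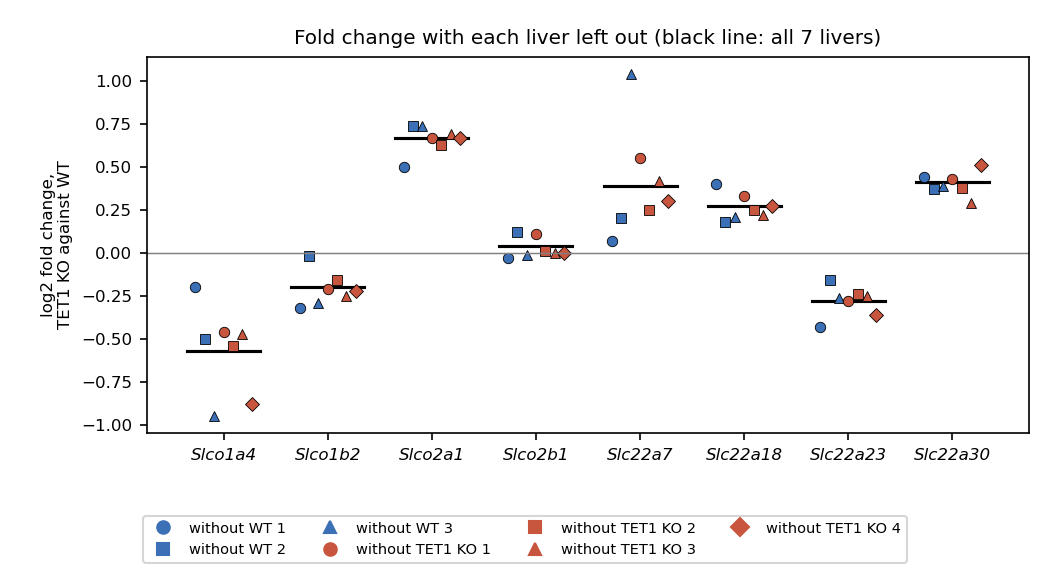
Log2 fold change of TET1 KO over WT for each of the 8 transporters in the fit to all 7 livers and with each liver left out in turn. The values for Slco2a1 stay between 0.50 and 0.74, whereas those for Slco1a4 run from -0.95 to -0.20 and those for Slc22a7 from 0.07 to 1.04.

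Under 14 alternatives, Slco2a1 kept its direction in 14 and passed the test in 3, namely DESeq2, robust dispersions and the replicate block. The other members passed in 0 of 14.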

How the data were processed

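Liver RNA of 7 mice, 3 WT and 4 TET1 KO, was sequenced. The authors deposited raw read counts per gene in 1 table per mouse. Per the labels' processing notes, the reads were trimmed with Trimmomatic 0.36, aligned with GSNAP to GRCm38 and counted with featureCounts 1.5.3. The counting options, strand setting and annotation release are not given in the sources used here. The deposited counts were joined by Ensembl identifier, since some symbols had been turned into dates in 1 table. Of 51431 entries, 5 repeats were left out. Groups and replicate numbers came from the labels, and no batch or date is given.

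Counts were scaled by TMM, filtered by filterByExpr and tested in edgeR 4.0.16 with the quasi-likelihood test, adjusted by Benjamini-Hochberg over 14754 genes and called at 0.05. The common biological coefficient of variation was 0.208. DESeq2 1.42.0 was an alternative. On simulated data for this comparison with 14754 genes, edgeR recovered 100 of 100 genes changed by 2 on the log2 scale and 80 of 100 changed by 1, with 11 false calls. Every simulated gene had the same dispersion and the changed genes were well counted, so these rates need not hold for more variable or lower genes. Levels per length used GENCODE M1 exon lengths, and promoters came from RefSeq GRCm38.p6. Ratios within clusters were tested by exact permutation. The named genes were all members, called genes of the listed families, fixed textbook carriers and regulators, and the 3 profiles nearest to the member with the smallest p, and other genes named were chosen after their values were seen. Some items of the lists and of the motif search are not reported here. The members and lists were chosen with earlier results of these data known.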

Additional observations from a re-analysis of the deposited data

Results flagged for a closer look

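The summed level of the T, NK and B cell markers had 1 liver far from the others of its group. TET1 KO replicate 2 stood at 6.62 CPM, and its gap to the nearest other TET1 KO liver was 0.934 of the group's whole range; this exceeds Dixon's critical value at the 95% level for 4 samples. Of 29 items examined, chance gives about 1.45 of this kind. Of the 8 transporters, 0 had such a liver in the TET1 KO group, and groups of 3 were not examined.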

How the results depend on the processing

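The count of members called higher was 0 and became 1, Slco2a1, under DESeq2, robust dispersions, a replicate block and an adjusted p of 0.1 (where 11.3% of all tested genes passed). Of the other transporters and regulators, 1 was called higher, against 3 under DESeq2, 2 at an adjusted p of 0.1 and 0 to 2 with 1 liver left out. Of these 2 were called lower, against 6 under DESeq2 and at an adjusted p of 0.1, 4 under library-size scaling and with no filter, 1 under robust dispersions, 0 with at least 10 counts in every library and 0 to 4 with 1 liver left out. Over all genes, 129 were called higher and 169 lower, against 626 and 689 under DESeq2, 245 and 347 with no filter, 841 and 825 at an adjusted p of 0.1, and 16 to 427 and 22 to 464 with 1 liver left out, the lowest without WT replicate 2 and the highest without TET1 KO replicate 4. Library-size scaling called 312 lower and moved the share of higher calls from 43.3% to 25.5%. With the replicate block, 670 were higher and 656 lower, 2 of the other transporters and regulators were higher, and Slco2a1 had a log2 fold change of 0.69 (adjusted p = 0.0477 by edgeR). The same-number correlations of 0.209, -0.123 and -0.0964 do not show that the numbers pair the livers. The Slco2b1 log2 fold change turned to -0.06 under library-size scaling, -0.0033 with the replicate block, and -0.03, -0.01 and -0.0023 without WT replicate 1, WT replicate 3 and TET1 KO replicate 4, in a range up to 0.12 without WT replicate 2. The cause of these movements was not tested. The other 7 members kept their direction in all 14 alternatives.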

Other observations

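Some relatives of the members were too low to test. Slco4a1, a thyroid hormone carrier, was counted 0, 3 and 0 times in WT and 19, 2, 12 and 5 times in TET1 KO. Slc22a2, an organic cation transporter best known from kidney, had 2, 6 and 2 counts in WT and 0 in all 4 TET1 KO livers, where a count of 0 allows up to 3. Both genes were chosen after their values were seen.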
